A study of Mus musculus with 6 samples.

Results

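The cell cycle genes of L929 cells were compared between STING KO and control libraries. L929 is a fibroblast line from mouse connective tissue. The genes are 49 fixed symbols, 25 of the G1 and S phases and of DNA replication and 24 of the G2 phase and mitosis, found among 27507 gene identifiers of the deposited table by symbol, with the first row of each identifier. RNA was measured by poly(A) RNA-seq in 3 libraries labelled STING KO and 3 labelled control, whose genotype label is WT. No treatment, clone number or time is given in the labels, and they do not say whether replicates came from separate cultures. A p-value here therefore reflects the spread among libraries, which may be technical. STING is the endoplasmic reticulum adaptor of the cytosolic DNA response, acting downstream of cGAS and upstream of TBK1.

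A dividing cell loads the MCM helicase on its origins in G1, fires it in S phase and segregates the copied chromosomes in mitosis. D-type cyclins with CDK4 and CDK6, then cyclin E with CDK2, phosphorylate the retinoblastoma protein and release E2F factors, which switch on replication genes. Genes of G2 and mitosis are switched on later, through B-MYB and FOXM1 together with the MuvB complex, which binds a promoter element called CHR. L929 cells divide continuously in culture. A level in bulk RNA averages over all phases, so fewer cells in a phase and less RNA per cell cannot be told apart.

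The promoters of both groups are shown because the split by phase, taken from the list of symbols, goes along with different shares of windows that hold a motif. RefSeq (GRCm38.p6) windows of 250 bases before to 50 after a start site were matched for 38 of the 49 genes, in 40 windows. In the sequences that follow, read 5′ to 3′ on the strand of the gene, capitals mark matches on either strand to an E2F site (TTTCCCGC, TTTCGCGC, TTTGCCGC or TTTGGCGC), a CCAAT box, which the factor NF-Y binds, or a CHR element (TTTGAA or TTCGAA). Mcm6, a helicase subunit of the G1/S group, lies in chr1:128359656-128359955 on the minus strand. Cdc20 (chr4:118437294-118437593, minus strand), which activates the anaphase-promoting complex, and Top2a (chr11:99024140-99024439, minus strand), the topoisomerase that untangles chromosomes, are shown from the G2/M group. Cdk6 (chr5:3343643-3343942, plus strand), a G1 kinase, is shown because it has the smallest p of the cell cycle genes tested.
Mcm6: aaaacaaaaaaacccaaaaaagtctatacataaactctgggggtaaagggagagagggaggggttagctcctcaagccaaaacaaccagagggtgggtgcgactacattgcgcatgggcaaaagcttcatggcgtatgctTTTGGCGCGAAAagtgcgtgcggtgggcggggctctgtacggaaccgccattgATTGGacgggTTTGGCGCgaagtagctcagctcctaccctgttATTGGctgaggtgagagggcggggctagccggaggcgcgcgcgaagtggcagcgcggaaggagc
Cdc20: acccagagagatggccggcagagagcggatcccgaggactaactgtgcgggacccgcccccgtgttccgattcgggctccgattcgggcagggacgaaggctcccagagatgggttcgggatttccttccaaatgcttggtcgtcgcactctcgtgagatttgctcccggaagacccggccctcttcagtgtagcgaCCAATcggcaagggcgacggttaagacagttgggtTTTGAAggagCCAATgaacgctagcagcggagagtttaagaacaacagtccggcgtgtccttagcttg
Top2a: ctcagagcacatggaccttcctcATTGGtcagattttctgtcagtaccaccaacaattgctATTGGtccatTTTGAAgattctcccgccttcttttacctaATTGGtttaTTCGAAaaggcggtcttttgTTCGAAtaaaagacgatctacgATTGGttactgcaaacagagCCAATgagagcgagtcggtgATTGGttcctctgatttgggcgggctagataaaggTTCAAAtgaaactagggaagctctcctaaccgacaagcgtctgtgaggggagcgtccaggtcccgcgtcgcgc
Cdk6: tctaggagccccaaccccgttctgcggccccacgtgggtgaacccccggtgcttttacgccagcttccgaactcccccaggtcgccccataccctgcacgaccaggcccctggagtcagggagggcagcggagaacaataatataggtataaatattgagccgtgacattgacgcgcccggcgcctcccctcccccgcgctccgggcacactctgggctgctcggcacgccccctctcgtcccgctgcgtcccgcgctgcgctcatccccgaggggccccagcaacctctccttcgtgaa

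Mcm6 holds 3 matches to an E2F site, 110, 106 and 47 bases before the start, the first 2 of which overlap, and CCAAT boxes at 57 and 14 bases. Cdc20 holds a CHR element 18 bases before the start between CCAAT boxes at 53 and 8 bases. Top2a holds 6 CCAAT boxes and 4 CHR elements. Mcm6 has the most E2F matches and Top2a the most CHR matches of all member windows, so they are not typical. The Birc5 and Ccnb1 windows, also of G2/M genes, hold no CHR element. The Cdk6 window holds none of these motifs, which says only that these letters are not in these 300 bases. It lies downstream of 3341485, where the annotated Cdk6 gene starts, and the sequence at that position was not searched.

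An E2F site was found in 8 of 22 windows of G1/S genes (36.4%) and in 1 of 18 windows of G2/M genes (5.56%), against 744 of all 32851 promoter windows (2.26%). The CHR element had the opposite distribution, with 13 of 18 windows of G2/M genes (72.2%) and 3 of 22 of G1/S genes (13.6%), against 19.2% of all windows. All 13 of those G2/M windows also held a CCAAT box, a pair found in 7.52% of all windows. At least 1 CCAAT box, with or without a CHR element, was in 83.3% of G2/M windows, 63.6% of G1/S windows and 37.4% of all windows. These shares describe sequence, and a match is not a bound site.

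**Figure D1:**
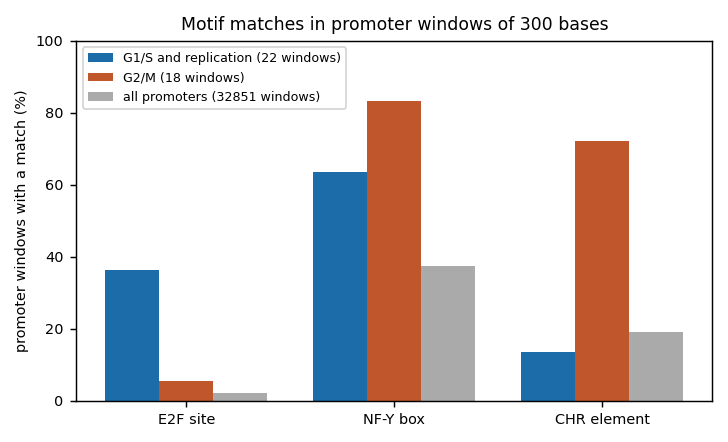
Share of promoter windows of 300 bases (vertical axis, %) with at least 1 match to an E2F site, an NF-Y box or a CHR element, for 22 windows of G1/S and replication genes, 18 windows of G2/M genes and all 32851 windows. The E2F bar is highest for the G1/S genes at 36.4% and the CHR bar is highest for the G2/M genes at 72.2%.

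Values are normalized counts, gene counts that the authors divided by a size factor of each sample, and each library sums to between 14382072 and 14526606 of them. The knockout check was the Sting1 transcript (Tmem173 in the table), at 82.1, 80.6 and 93.4 normalized counts in STING KO and at 329, 313 and 311 in control. Of 10 fibroblast markers 8 were tested and 0 called, and together they held 195902 to 210039 normalized counts in STING KO libraries and 182647 to 194664 in control libraries. Most of these counts were of Vim (79614 to 103473 over the 6 libraries) and Fn1 (53709 to 59498). Col1a2 followed at 26399 to 29285 and Col1a1 at 10264 to 12691. Thy1 (28.1 to 59.6), Dcn (0 to 94.4) and Lum (0 to 31.8) were low. Dcn and Lum were highest in STING KO replicate 1 and control replicate 3. Markers of hepatocytes, 8 genes led by Alb, summed to 4399 in STING KO replicate 1 and 4668 in control replicate 3, against 207 to 579 in the other 4 libraries. Macrophage and leukocyte markers summed to 798 to 915 in STING KO and 750 to 851 in control (3 of 6 tested), and epithelial and endothelial ones to 504 to 617 and 446 to 523 (2 of 6 tested), with 0 called in any of these lists and no marker at 0 in every library. Most of the macrophage and leukocyte sum was Cd68 (670 to 860 over the 6 libraries), and most of the epithelial and endothelial sum was Krt8 (413 to 547). No other marker of either list passed 49.7 in any library.

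None of the cell cycle genes differed between STING KO and control libraries past the threshold, and the intervals around their fold changes were narrow. Of the 48 tested, 0 were called higher and 0 lower by limma (threshold 0.05 on the p adjusted by Benjamini-Hochberg), where 0.258% of all 12408 tested genes were called, all 32 of them lower. The smallest adjusted p was 0.368, for Cdk6. At an unadjusted p at or under 0.05 there was 1 gene, Cdk6, which was lower and is 2.08% of the 48, beside 3.18% lower, 3.2% higher and 6.37% in all among tested genes. The authors' deposited table also has 0 of the 48 past the threshold.

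Signs were even, with 24 positive and 24 negative log2 fold changes, beside 49.2% positive among all tested genes. The median log2 fold change was -0.002, beside -0.003 over all tested genes, and single values ran from -0.27 (Cdk6) to 0.08 (Birc5). Groups did not overlap for 2 genes, Cdk6 with lower and Aurkb with higher STING KO values, which is 4.17% of the 48 beside 12.1% of all tested genes. The 48 genes held 0.86%, 0.85% and 0.83% of all normalized counts in STING KO libraries and 0.859%, 0.84% and 0.847% in control libraries.

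The intervals bound what could have been missed. Each 95% interval of a fold change lay within 1.5-fold in both directions for 48 of 48 genes, beside 85.4% of all tested genes, and within 1.25-fold for 45 of 48, beside 61.5%. These genes are also more abundant, at a median of 1870 normalized counts against 543 for all tested genes. The lowest bound was that of Cdk6, at 75.3% of the control level, followed by Pola1 at 75.4% and Ccne2 at 75.8%. The highest was that of Birc5, at 1.19-fold. So a fall to under 75.3% of control, or a rise over 1.19-fold, lay outside the interval of each of the 48 genes taken on its own. With joint intervals, widened by Bonferroni over 49 genes, the outermost bounds were both those of Ccne2, at 61.8% of control and 1.36-fold, and 46 of the 48 stayed within 1.5-fold.

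**Figure D2:**
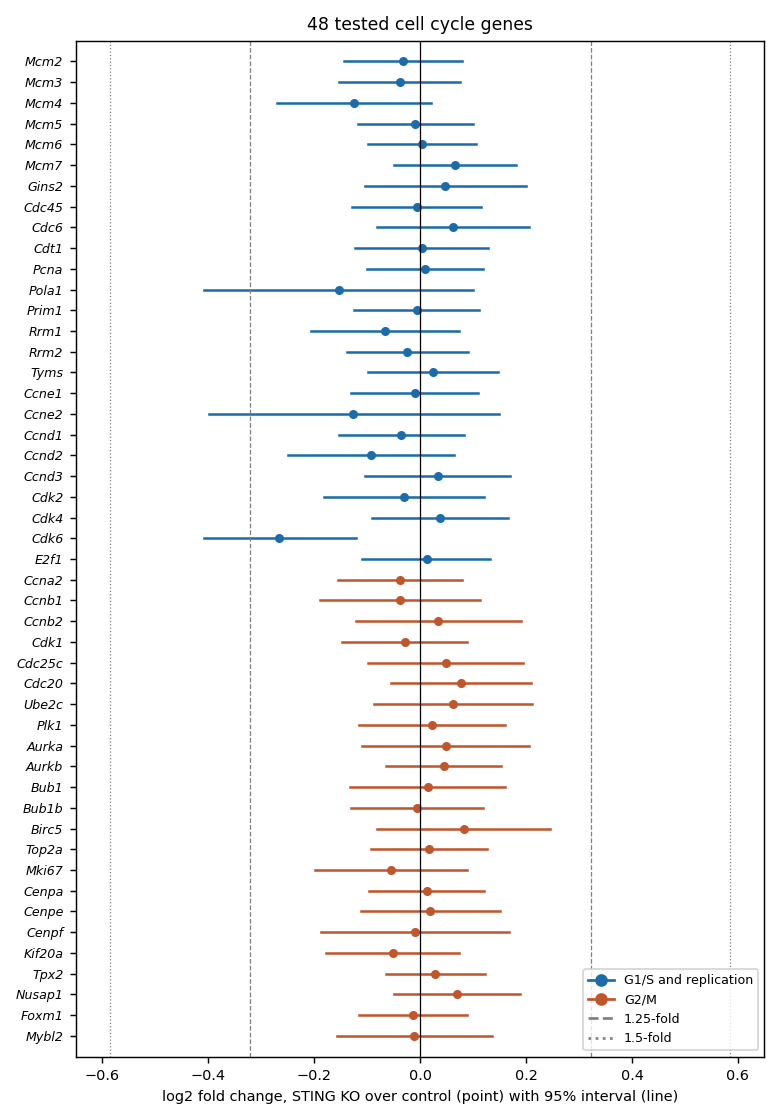
Difference between STING KO and control as a log2 fold change (horizontal axis) for the 48 tested genes, as a point with its 95% interval from limma as a line, coloured by phase. All lines stay inside the dotted marks at 1.5-fold, 3 cross the dashed mark at 1.25-fold (Cdk6, Pola1 and Ccne2), and 1 (Cdk6) does not reach 0.

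The 49th gene, Kif11 (ENSMUSG00000012443, chromosome 19), which encodes the motor that pushes spindle poles apart, is listed at 0 in all 6 libraries and was not tested. Among the other cell cycle genes looked up, the mitotic kinase gene Nek2 and the CDK inhibitor gene Cdkn2a are also listed at 0 throughout. In all, 4241 of 21033 protein-coding identifiers are listed at 0 in every library, and such a 0 is not read here as absent RNA.

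Helicase genes were nearly level between the genotypes. The minichromosome maintenance proteins MCM2 to MCM7 form the ring that unwinds DNA at the fork, and CDC45 and GINS2 complete it, while CDC6 and CDT1 load it. Mcm6 had the highest mean normalized count of these genes, not corrected for length. It was at 3962, 3941 and 4032 in STING KO and at 3999, 4085 and 3832 in control, and its groups overlapped. Mcm5 was at 3692, 3407 and 3590 in STING KO and at 3663, 3569 and 3517 in control, 99.4% of the control mean. The helicase gene with the largest difference was Mcm4, at 1717, 1767 and 1571 in STING KO and 1942, 1732 and 1838 in control. STING KO replicate 2 stood above control replicate 2, so the Mcm4 groups overlapped (log2 fold change -0.12, 95% interval -0.27 to 0.02, limma adjusted p = 0.738). Mcm7 leaned the other way, with 2154, 2100 and 2216 in STING KO and 2068, 2136 and 1981 in control (log2 fold change 0.07, interval -0.05 to 0.18).

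The other helicase and loading genes had means between 97.4% (Mcm3) and 104% (Cdc6) of control. Over these 10 genes the median log2 fold change was -0.002, with 5 positive and 5 negative. All 10 intervals lay within 1.25-fold. Of the 49 genes, 19 overlap exons of another annotated gene, 16 of them one that is in the table, and how strand was treated in counting is not given in the sources used here. Reads of such genes may be mixed. Gins2 shares 67.3% of its annotated exon bases with Gse1, Kif20a 29.3% with Cdc23, Ccnd1 23.4%, Cdk4 19.7% with Tspan31 and Ccne2 17.4% with Ints8, each on the opposite strand. Ints8, at 1350 normalized counts, has more counts than Ccne2.

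Genes of DNA synthesis and nucleotide supply were led by Rrm2, the regulated subunit of ribonucleotide reductase. It was at 5598, 5654 and 5196 normalized counts in STING KO and at 5744, 5366 and 5607 in control. Its partner subunit gene Rrm1 was at 2525, 2670 and 2310 in STING KO and at 2656, 2508 and 2684 in control, a log2 fold change of -0.07 (interval -0.21 to 0.07). For both genes the lowest library was STING KO replicate 3, and the groups overlapped. Pola1, the catalytic subunit of DNA polymerase alpha that starts each new strand (chromosome X, 93304767 to 93632155, minus strand), was at 523, 552 and 422 in STING KO and at 597, 486 and 577 in control. Its log2 fold change of -0.15 had an interval of -0.41 to 0.10 (limma adjusted p = 0.744). Leaving out single libraries moved it between -0.24, with control replicate 2 left out, and -0.04, with STING KO replicate 3 left out. Pcna, the sliding clamp, averaged 1824 ± 39.2 in STING KO and 1813 ± 44.1 in control (SD, n = 3 each). The primase gene Prim1 and Tyms, the thymidylate synthase gene, had means of 99.6% and 102% of control.

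Among the regulators of G1, Cdk6 had the largest difference of all 48 genes. Cdk6 (ENSMUSG00000040274, chromosome 5, 3341485 to 3531008, plus strand) was at 644, 673 and 598 normalized counts in STING KO and at 779, 745 and 776 in control. Each STING KO library was below each control library. The means were 638 ± 38.1 and 767 ± 18.6 (SD, n = 3 each), 83.3% of control, with a log2 fold change of -0.27 (SE 0.06, interval -0.41 to -0.12). The unadjusted p of 0.00223 gave a limma adjusted p of 0.368 over all tested genes, so Cdk6 was not called. Over 15 alternatives its log2 fold change ran from -0.31 to -0.22, its adjusted p was between 0.304 and 1, and in the authors' deposited table the adjusted p is 0.675.

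Cdk4, the other partner of the D-type cyclins, was at 8311, 7953 and 8614 normalized counts in STING KO and at 7961, 8678 and 7633 in control, with overlapping groups (log2 fold change 0.04, interval -0.09 to 0.17). Ccnd1, the cyclin D1 gene, which growth factors and NF-kB are known to induce in fibroblasts, was at 5020, 4799 and 4520 in STING KO and at 5001, 4722 and 4970 in control. That is 97.6% of control, with an interval of 89.9% to 106%. Ccnd2 was at 3977, 4094 and 3491 in STING KO and at 4248, 3832 and 4232 in control (93.9%, interval 84.2% to 104%). The third D-type gene, Ccnd3, was at 1788, 1574 and 1725 in STING KO and at 1648, 1718 and 1601 in control, 102% of the control mean. None of the D-type cyclins had groups that were apart.

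Ccne1, which with Ccne2 encodes the E-type cyclins that drive entry into S phase through CDK2, was at 1695, 1626 and 1763 normalized counts in STING KO and at 1739, 1735 and 1646 in control. Ccne2 (chromosome 4, 11191351 to 11204779, plus strand) had the widest interval of the 48 genes. It was at 448, 448 and 347 in STING KO and at 482, 387 and 486 in control, with the lowest value of both groups in the same pair of libraries as Pola1, STING KO replicate 3 and control replicate 2. Its log2 fold change was -0.13 (interval -0.40 to 0.15), and it was -0.003 without STING KO replicate 3. Cdk2 and E2f1, the gene of the founding E2F activator, had means of 98.1% and 101% of control. The 9 regulators of G1 had a median log2 fold change of -0.03, with 3 positive and 6 negative.

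Compared per length, levels differed between most members of each family. Values are normalized counts per kb of the longest coding transcript in GENCODE M21, as the mean ± SD over the 6 libraries. Cdk4 stood at 3990 ± 201 per kb, far above Cdk2 (401 ± 21.0), Cdk1 (382 ± 12.1) and Cdk6 (61.0 ± 6.53), and the ranges of Cdk2 and Cdk1 overlapped. Ccne1 was at 850 ± 27.6 per kb against 144 ± 18.3 for Ccne2. Ccnd1 led the D-type cyclins at 1294 ± 52.6 per kb, ahead of Ccnd3 at 793 ± 38.8 and Ccnd2 at 629 ± 45.2. With the union of annotated exons as the length, Ccnd1 still led at 1028 per kb, but Ccnd2 (423) stood above Ccnd3 (191), so the order of these genes depends on the transcript model. In the helicase, Mcm5 (1057 ± 30.5 per kb) was highest and Mcm4 (491 ± 34.7) lowest, and the ranges of Mcm2 and Mcm6 overlapped. With the union of exons Mcm5 was still highest (895), but Mcm2 (453) and Mcm7 (477) stood below Mcm4 (491), and Cdk1 (338) stood above Cdk2 (155).

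**Figure D3:**
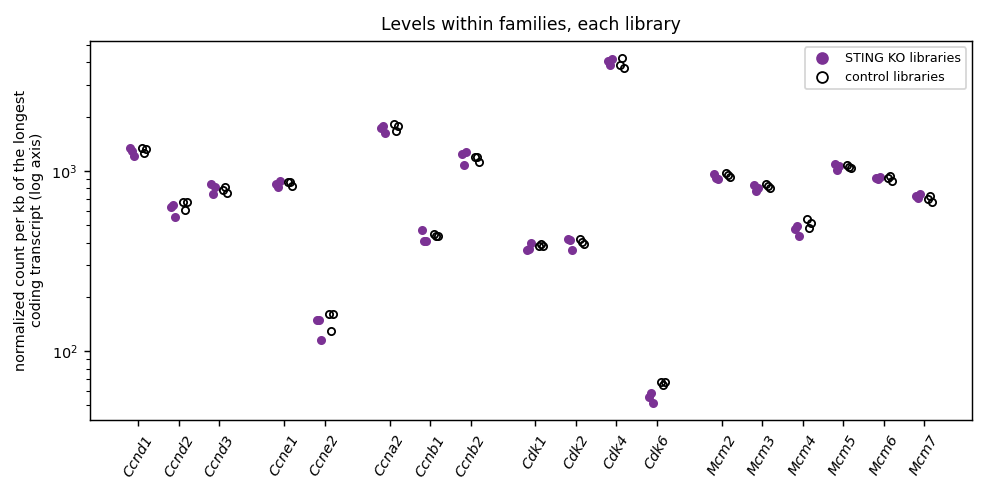
Normalized count per kb of the longest coding transcript (vertical log axis) in each library, with STING KO libraries as filled and control libraries as open points, for D-type, E-type and mitotic cyclins, CDKs and MCM subunits. CDK levels span 3990 per kb for Cdk4 to 61.0 for Cdk6, the ranges of Cdk1 and Cdk2 and those of Mcm2 and Mcm6 overlap, and of these genes the points of the genotypes are apart for Cdk6 alone, lower in STING KO.

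Genes of mitotic entry and of ubiquitin-driven exit were also level. CDK1 with cyclins A2, B1 and B2 drives mitosis, the phosphatase CDC25C activates it, and CDC20 and the conjugating enzyme UBE2C act with the anaphase-promoting complex to end it. Ccna2 had the highest mean normalized count of this group, not corrected for length. It was at 5141, 5238 and 4837 in STING KO and at 5378, 4961 and 5287 in control, with overlapping groups. Corrected for length, Ube2c (1827 per kb) stood above Ccna2 (1734 per kb), with overlapping ranges. Ube2c was at 4073, 3876 and 4313 in STING KO and at 3873, 4259 and 3628 in control, 104% of the control mean. Cdc20 was at 3011, 2857 and 3102 in STING KO and at 2858, 2999 and 2652 in control (log2 fold change 0.08, interval -0.05 to 0.21, limma adjusted p = 0.744). For Cdc20 and Ube2c, control replicate 2 lay within the STING KO values. The means of Ccnb1, Ccnb2, Cdk1 and Cdc25c were at 97.6%, 103%, 98.1% and 103% of control. Per kb, Ccna2 (1734 ± 69.4) stood above Ccnb2 (1181 ± 73.5) and Ccnb1 (434 ± 24.1; SD over 6 libraries), with no overlap of their ranges.

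Mitotic kinase and checkpoint genes had 5 positive and 1 negative log2 fold changes, none called. Birc5 encodes survivin, which works with Aurora B at centromeres. It was at 2214, 2070 and 2433 normalized counts in STING KO and at 2024, 2286 and 2030 in control, a log2 fold change of 0.08 (interval -0.08 to 0.25). Aurkb, the Aurora B gene (chromosome 11, 69045647 to 69051664, plus strand), was the 1 gene with every STING KO library above every control library, at 1384, 1336 and 1371 against 1317, 1331 and 1320. This gap amounts to 103% of control (log2 fold change 0.04, interval -0.06 to 0.15, limma adjusted p = 0.796). Plk1, the polo-like kinase gene of spindle assembly, was at 1980, 1855 and 2074 in STING KO and at 1833, 2041 and 1945 in control. Aurka, whose kinase matures centrosomes, was at 1651, 1545 and 1841 in STING KO and at 1621, 1690 and 1552 in control. Both had overlapping groups. The checkpoint kinase genes Bub1 and Bub1b had means of 101% and 99.6% of control.

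Chromosome, centromere and spindle genes included the marker of proliferation Mki67, which encodes the coat of mitotic chromosomes. It was at 6769, 7128 and 6201 normalized counts in STING KO and at 7099, 6500 and 7274 in control, 96.3% of control with an interval of 87.1% to 106%. Top2a was at 8196, 8371 and 7616 in STING KO and at 7906, 7825 and 8158 in control (101%, interval 93.7% to 109%). Nusap1, a spindle microtubule bundler, was at 1617, 1610 and 1638 in STING KO and at 1473, 1546 and 1621 in control, where replicate 3 overlapped the STING KO values. The remaining genes of this class, the centromere genes Cenpa, Cenpe and Cenpf, the motor gene Kif20a and the Aurora A activator Tpx2, had means between 96.5% (Kif20a) and 102% (Tpx2) of control.

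The mitotic transcription factor genes did not stand apart either. Foxm1 was at 5075, 4876 and 4785 normalized counts in STING KO and at 5080, 4862 and 4937 in control, and Mybl2, the B-MYB gene, at 817, 743 and 724 in STING KO and at 786, 775 and 738 in control. The Foxm1 interval ran from 92.3% to 106% of control and the Mybl2 interval from 89.7% to 110%.

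Set side by side, the G1/S and G2/M groups differed little in their response. The 25 G1/S and replication genes had a median log2 fold change of -0.009, with 10 positive and 15 negative. The 23 tested G2/M genes had a median of 0.017, with 14 positive and 9 negative. The difference of the medians, G2/M minus G1/S, was 0.025, and it was 0.003 when control replicate 2 was left out. The widest bounds were 75.3% of control and 1.15-fold (Cdc6) among G1/S genes, and 87.1% of control (Mki67) and 1.19-fold (Birc5) among G2/M genes.

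Within each library, the mean log2 value relative to the control mean was -0.005, -0.023 and -0.059 for G1/S genes in STING KO and 0.030, -0.018 and -0.012 in control. For G2/M genes it was 0.035, -0.001 and 0.009 in STING KO and 0.007, -0.005 and -0.002 in control. Both scores overlapped between the genotypes. Their difference within a library was 0.040, 0.021 and 0.068 in STING KO and -0.023, 0.012 and 0.010 in control, without overlap but with a gap smaller than the SD of either group (0.024 and 0.020, n = 3 each). The same difference over other tested cell cycle genes, 61 of G2/M and 41 of G1/S, was 0.013, 0.052 and -0.030 in STING KO and 0.010, -0.035 and 0.025 in control, which overlapped.

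**Figure D4:**
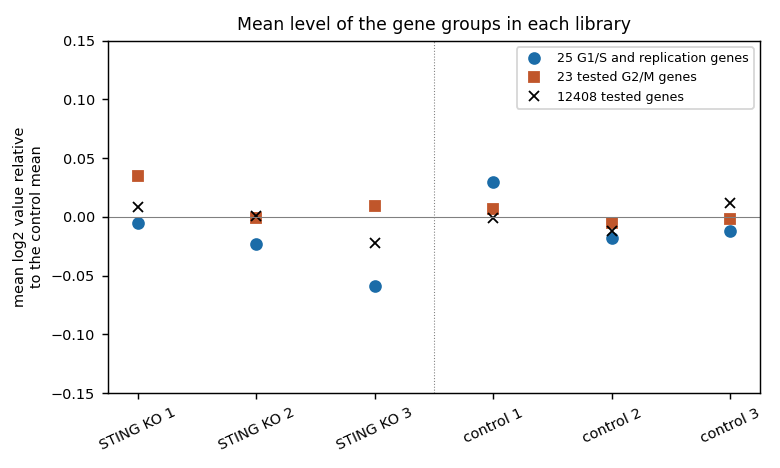
Mean log2 value relative to the control mean (vertical axis) in each of the 6 libraries for the 25 G1/S and replication genes, the 23 tested G2/M genes and all 12408 tested genes. All points lie between -0.059 and 0.035, and the lowest is the G1/S point of STING KO replicate 3.

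Transcript length went along with how single libraries deviated. Across the 48 genes, the deviation of STING KO replicate 3 from the other STING KO libraries had a Spearman correlation of -0.59 with the length of the longest coding transcript, and that of control replicate 2 had -0.54. The opposite sign was found for STING KO replicate 2 (0.65) and control replicate 3 (0.50). Over 11841 tested genes with a coding transcript the same 4 values were -0.49, -0.47, 0.44 and 0.37, so the relation was not limited to cell cycle genes. STING KO replicate 1 and control replicate 1 had 0.08 and 0.22 across the 48 genes. Within a group the deviations of a gene cancel out by construction, so the opposite signs are not separate observations. These are correlations across genes that share the 6 libraries, given as a description.

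The fold changes themselves had a correlation of -0.40 with length across the 48 genes, and 0.06 when STING KO replicate 3 was left out. Over the other 124 tested cell cycle genes these values were -0.50 and -0.16. Over all tested genes with a coding transcript they were -0.41 (11841 genes) and -0.18 (11756 genes). The 24 genes with the shorter transcripts (1466 to 3163 bases) had a median log2 fold change of 0.012, with 15 positive, and the 24 with the longer ones (3334 to 11525 bases) had -0.010, with 9 positive. Cdk6 has the longest transcript of all, at 11525 bases. Without STING KO replicate 3 its log2 fold change was -0.22, and Cenpf and Mki67, the next in length at 11130 and 10061 bases, had -0.009 and -0.055 in the full comparison. The part of length in the Cdk6 value was not tested. G1/S and G2/M genes had median lengths of 3031 and 3421 bases.

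**Figure D5:**
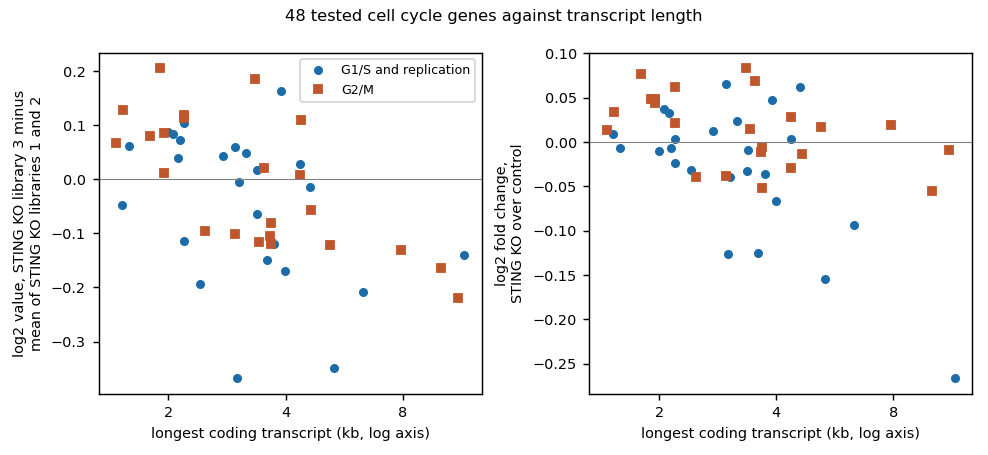
Left, log2 value of STING KO replicate 3 minus the mean of STING KO replicates 1 and 2, and right, the log2 fold change between STING KO and control, each against the length of the longest coding transcript (kb, log axis) for the 48 tested genes. Points slope down with length on the left (Spearman -0.59) and less so on the right (-0.40), where the lowest point is Cdk6.

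A further 127 cell cycle genes, in lists by role, were looked at in the same fit. Of the 124 tested, 0 were called in either direction, 59 had a positive and 65 a negative log2 fold change, and the median was -0.013 with all 124 intervals within 1.5-fold. At an unadjusted p at or under 0.05 there were 1 higher and 3 lower genes, beside 6.37% of all tested genes in both directions. Groups did not overlap for 4 with higher and 5 with lower STING KO values, beside 5.76% and 6.32% of all tested genes.

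The smallest p among these was that of Orc1, the largest subunit of the origin recognition complex, at 213, 223 and 196 normalized counts in STING KO and at 280, 254 and 262 in control (log2 fold change -0.34, interval -0.52 to -0.15, limma adjusted p = 0.406). Of the 11 genes of origin recognition and firing, 10 had a negative and 1 a positive sign, at a median of -0.04 (log2). Wee1, the kinase that holds CDK1 inactive, was at 752, 790 and 735 in STING KO and at 877, 795 and 915 in control (log2 fold change -0.18, interval -0.34 to -0.03, adjusted p = 0.738). For Orc1 and Wee1 every STING KO library was below every control library.

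Inhibitors of the cycle were not called either. Cdkn1c, which encodes the CDK inhibitor p57, was at 182, 174 and 215 normalized counts in STING KO and at 150, 158 and 148 in control, with groups apart (log2 fold change 0.32, interval 0.09 to 0.55, limma adjusted p = 0.702). Cdkn1a, the p21 gene and a target of p53, averaged 2321 in STING KO and 2278 in control, and Cdkn1b, the p27 gene, averaged 1366 and 1439. The retinoblastoma gene Rb1 and its relative Rbl1 were at log2 fold changes of -0.10 and -0.17, with intervals that include 0. Over the 8 tested inhibitors and pocket proteins the median was -0.02 (log2), with 4 positive and 4 negative.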

How the data were processed

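The data are 1 deposited table of 27821 rows, of which 314 repeat an identifier and were dropped. Its 6 sample columns hold a signal, gene counts divided by a size factor by the authors: all values above 0 were whole multiples, within 0.01, of a step of 0.990 to 1.00 in each column. Per the file headers the table also has the authors' log2 fold change, its standard error and Wald score, and p-values. Per the submitters' processing notes, which give no roles, DESeq2 1.4.5, RSEM 1.2.12, Bowtie2 2.2.5 and HISAT2 2.0.4 were used, with GRCm38 and mm10.

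limma 3.58.1 (R 4.3.3) with a mean-variance trend was fitted on log2(value + 0.1) of genes with at least 10 in at least 3 libraries, without covariates, and p-values were adjusted over all 12408 genes. The script was tested on simulated counts with a set dispersion of 0.002 and no link to transcript length, which need not match these libraries. There, 74% of 50 genes changed by 1.25-fold were called, and 9 of 186 calls were of unchanged genes. The pseudocount understates changes of low genes. Lengths and coordinates are from GENCODE M21 (GRCm38), which holds 27480 of the identifiers. No p was computed for groups of genes.

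The genes, lists and tests were chosen with earlier results of these data known. Values per library are given for the 2 genes with the highest mean normalized count and the 2 largest changes of each role. They are also given for the D- and E-type cyclins, the widest interval, the 3 smallest p and, of the other lists, the 3 smallest p. Genes singled out beside these, Aurkb among them, were chosen after their values were seen. Scores are means of log2 values over tested genes.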

Additional observations from a re-analysis of the deposited data

How the results depend on the processing

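With every alternative run, 0 of the 48 tested genes were called higher or lower. These were a pseudocount of 1, no filter, a minimum mean of 5 CPM, upper-quartile and TMM scaling, limma-voom, a replicate block, leaving out each library, leaving out control replicate 3 and STING KO replicate 1 together, and the authors' deposited test. Of 375 values of 25 named genes, 375 stayed uncalled and 27, in 12 genes, changed sign. The widest interval bound, as a fold, was 1.33 in the reported fit, 1.28 to 1.42 when 1 library was left out, 1.42 without the pair of libraries with hepatocyte markers and 1.62 with joint intervals. The median of the G2/M genes was 0.036 with upper-quartile scaling, which also moved the median of all genes to 0.017, from -0.003. The difference of the medians was 0.003 (without control replicate 2) to 0.040 when 1 library was left out, and 0.053 without the pair of libraries. The causes were not tested. The labels do not say whether replicate numbers pair the libraries. Deviations of libraries with the same number had no positive correlation (-0.183, -0.180 and -0.488), which does not settle it. With the replicate block the difference of medians was 0.025 and the widest bound 1.38. With the union of exons as length, the ratio per kb of Ccnd1 over Ccnd2 was 2.43 in place of 2.06, of Cdk4 over Cdk6 50.2 in place of 65.5, of Mcm5 over Mcm4 1.82 in place of 2.15, and of Ccna2 over Ccnb1 4.91 in place of 3.99, since only the length differs. The planned edgeR test on recovered reads was not run, and these values were used only as normalized values. The groups were also changed by moving Mybl2 and Ccna2 to G1/S, and by leaving out D-type cyclins with Cdk2, Cdk4 and Cdk6. These changes, and means in place of medians, moved the medians and their difference by less than the spread between replicates. Depth limits genes with few counts most, and its part in the width of the intervals was not tested.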
